A study of Apostichopus japonicus with 3 samples.

Results

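Notch, Wnt, bone morphogenetic protein (BMP), transforming growth factor beta (TGF-beta) and Hedgehog signalling genes were described in body wall RNA of the sea cucumber Apostichopus japonicus. The members are isotigs, transcripts assembled from reads, whose best KEGG orthology name holds a keyword of these pathways. The keywords are Notch, jagged, wingless, frizzled, dishevelled, axin, adenomatosis polyposis coli, bone morphogenetic, chordin, hedgehog, patched, decapentaplegic, transforming growth factor and TGF-beta. They found 90 of 21290 isotigs. Of these, 13 matched only because the letters axin stand inside the names of ataxin-7, aprataxin, senataxin, the syntaxins and their binding proteins, which belong to other processes. The other 77 fall into a Notch family of 34 isotigs, a Wnt family of 17, a BMP family of 16 that includes the SMADs, a TGF-beta family of 9 and 1 hedgehog isotig. These 77 are called pathway isotigs below. No isotig carried the whole word axin or the name patched.

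The series holds 3 RNA libraries, 1 for each group. Animals for the light library spent 2 h at about 2000 lux, those for the dark library spent 2 h without light under a shade cloth, and those for the control library stayed in natural light near 100 lux. The labels name no genotype, strain or age, and do not say how many animals each library holds. The comparisons ask how expression under strong light or darkness differs from that in natural light. With 1 library a group there is no replicate spread and no test between conditions, so every difference below is one between these libraries.

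Notch is a receptor with a long row of EGF-like repeats. A ligand on a neighbouring cell, delta or jagged, leads to its cleavage by ADAM proteases and then by gamma-secretase, and the freed inner part enters the nucleus. Wnt proteins bind frizzled receptors, and dishevelled and the APC protein act downstream of them in the control of beta-catenin. BMP and TGF-beta ligands bind receptor kinases that phosphorylate SMAD proteins, and secreted proteins such as chordin hold the ligands back. In sea urchin embryos Wnt and BMP signals pattern the body axes and Notch takes part in the choice of cell fates.

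The light, dark and control libraries held 1.64, 1.70 and 1.57 Mreads assigned to a single isotig (M for mega). The dark library stood apart from the other libraries. Ribosomal protein isotigs took 7.84% of the reads in light, 12.8% in dark and 8.02% in control, and 2 mitochondrial transcripts took 0.476% in light, 0.845% in dark and 0.498% in control. The part of these shares in the results was not tested. The median log2 ratio of all 18225 isotigs that passed the level filter, a mean RPKM (read density per length and depth) of 1 or more, was 0.00 for light vs control, -0.31 for dark vs control and 0.32 for light vs dark. Dark results are therefore also given after scaling with median-of-ratios size factors. Muscle isotigs, a possible source of other cells in the body wall, took 0.437% of the light reads, 0.322% of the dark reads and 0.421% of the control reads (97 isotigs). Their part in the results was not tested. Fibrillar collagen isotigs, which mark connective tissue, took 2.31% of the light reads, 1.96% of the dark reads and 2.08% of the control reads. The tissue label names the body wall and the source label the intestine, and a list of 23 digestive isotigs took 0.258% in light, 0.254% in dark and 0.260% in control.

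The pathway isotigs held 0.573% of the reads in the light library (Wilson 95% interval 0.561 to 0.584), 0.748% in the dark library (0.735 to 0.761) and 0.548% in the control library (0.536 to 0.559). The higher dark share came from 3 isotigs named Notch with consecutive numbers, isotig05245, isotig05246 and isotig05247, which together took 0.258% of light, 0.545% of dark and 0.240% of control reads. Without these 3, the share was 0.315% in light, 0.202% in dark and 0.308% in control. The Wnt isotigs took 0.0669% of light reads, 0.0320% of dark reads and 0.0641% of control reads. The TGF-beta isotigs took 0.0238%, 0.0108% and 0.0239% in light, dark and control. The BMP isotigs took 0.0981% in light, 0.0773% in dark and 0.116% in control. Most of the BMP reads fell on 1 chordin isotig, isotig20247. It held 1224 of 1614 in light, 1122 of 1312 in dark and 1535 of 1829 in control. The Wilson intervals cover counting error only, since reads without molecular identifiers are not independent molecules. In tissue RNA, fewer cells of a type and less RNA per cell cannot be told apart.

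**Figure D1:**
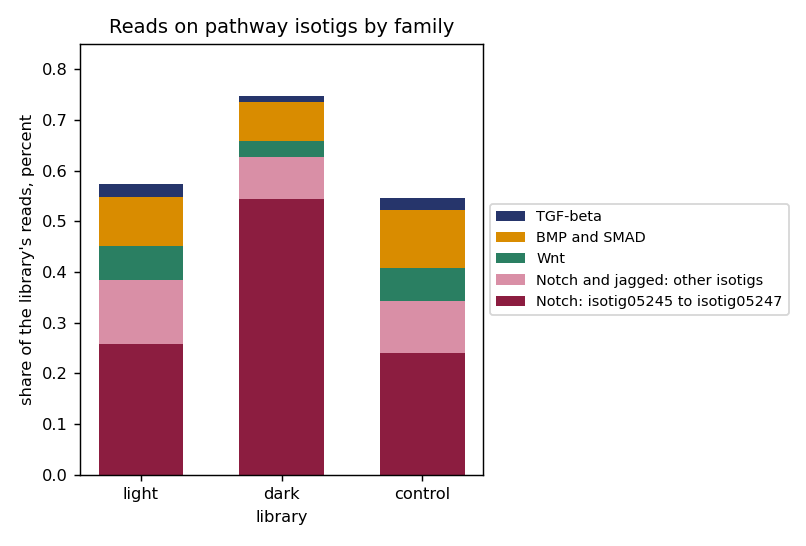
Share of each library's reads, in percent, on pathway isotigs, stacked by family for the light, dark and control libraries (1 library each, no error bars; the hedgehog isotig, with at most 6 reads, is left out). The segment of isotig05245, isotig05246 and isotig05247 is 0.545% in dark against 0.240% in control, while the rest of the pathway isotigs together take 0.202% in dark against 0.308% in control.

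Reads per pathway isotig were few, as they were over all isotigs. The median pathway isotig had a mean of 13.7 reads and 14.7 RPKM over the libraries. The medians were 13.0 reads and 10.6 RPKM over all isotigs, and 18.7 reads and 12.5 RPKM over those with a KEGG hit. Of the 77 pathway isotigs, 60 had reads in all 3 libraries (77.9%, against 81.4% of all isotigs). None were read in the light library for 6 pathway isotigs (7.79%), in the dark library for 10 (13.0%) and in the control library for 6 (7.79%). Over all 21290 isotigs these shares were 7.64% in light, 11.0% in dark and 8.71% in control. The 9 pathway isotigs that did not pass the level filter had between 0 and 4 reads in any library. They comprised 5 Notch isotigs, 3 Wnt isotigs and 1 BMP isotig, and 68 pathway isotigs passed. The counts below cover these 68 and not all members, and since an isotig can pass through the library where it is high, they are descriptions.

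The names rest on protein database hits, and the best-read members have the weaker ones. A hit with an E-value above 1e-10, the number of such hits expected by chance, was the best one for 17 of 77 pathway isotigs (22.1%), against 13.5% of all 7441 isotigs with a KEGG hit. Among the 12 pathway isotigs whose mean reached 100 reads it was 7 (58.3%), against 107 of 1208 isotigs of that depth with a hit (8.86%). Among the 65 less deeply read pathway isotigs it was 10 (15.4%). The best hit was a sea urchin protein for 28 of the 77 (36.4%), as for 36.1% of all isotigs with a hit. Such isotigs are called by their deposited name below, and the name stays uncertain where the hit is weak.

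**Figure D2:**
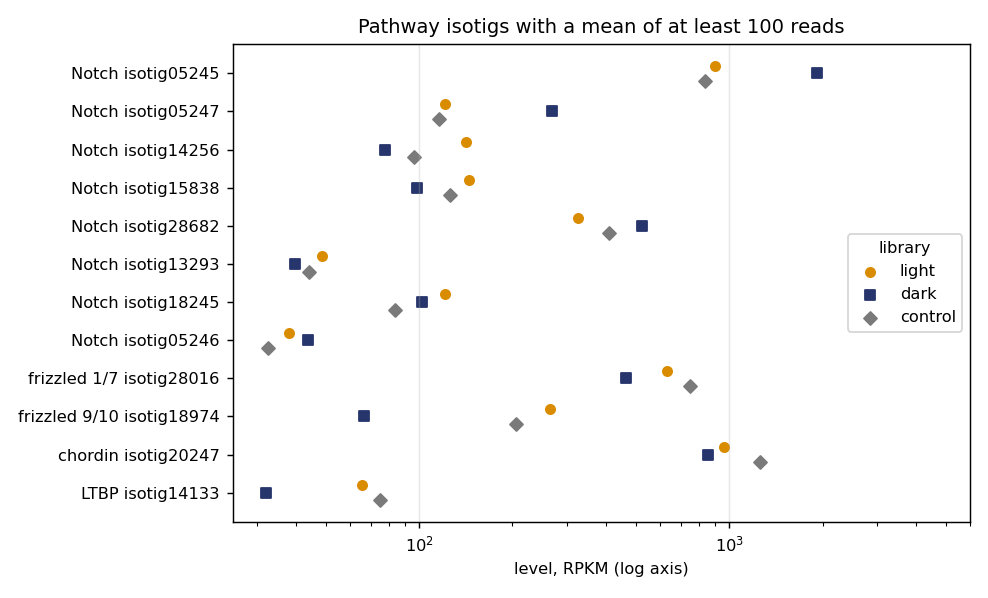
Level in RPKM (log axis) of the 12 pathway isotigs whose mean reached 100 reads, in the light, dark and control libraries, 1 point per library and grouped by family. Notch isotig05245 is at 1925 RPKM in dark, against 836 in control, while frizzled 9/10 isotig18974 is at 66.6 RPKM in dark, against 205 in control; LTBP is latent TGF-beta binding protein.

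In light vs control, 7 of the 68 pathway isotigs (10.3%) stood 2-fold or more above control and 2 (2.94%) stood 2-fold or more below it. Over all isotigs that passed the filter 7.77% were higher and 7.22% lower, and over those with a KEGG hit 5.92% and 4.94%. The median log2 ratio was 0.20. In dark vs control, 4 were at least 2-fold higher (5.88%, against 7.09% of all) and 33 at least 2-fold lower (48.5%, against 24.0% of all and 29.6% of isotigs with a KEGG hit). The median log2 ratio was -0.96, and -0.73 with libraries at 0 reads set to 3 reads. With size factors 5 were higher (all isotigs, 11.8%; with a KEGG hit, 7.79%) and 26 lower (all isotigs, 16.6%; with a KEGG hit, 18.8%). In light vs dark, 33 were at least 2-fold higher (48.5%, against 26.2% of all and 32.7% of isotigs with a KEGG hit). In the same comparison 6 were lower (8.82%, against 8.09% of all and 4.83% of isotigs with a KEGG hit). With size factors 26 were higher (18.5% of all, 22.2% with a KEGG hit) and 7 lower (14.1% of all, 8.64% with a KEGG hit). The 3 comparisons share libraries, so they are not independent of each other. The 13 isotigs matched by letters alone all passed the filter, and in dark vs control 5 of them were lower (38.5%) and 1 higher (7.69%). Against these stood 24.0% lower and 7.09% higher of all isotigs, and 29.6% and 4.23% of those with a KEGG hit.

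The share of lower isotigs in dark was larger among thinly read members. Of the 35 with a mean under 20 reads, 21 were at least 2-fold lower in dark than in control (60.0%, against 28.4% of all isotigs of that depth). Of the 33 whose mean reached 20 reads it was 12 (36.4%), against 19.1% of all isotigs of that depth and 26.9% of those with a KEGG hit. With size factors 9 of the 33 were lower, against 10.3% of all isotigs of that depth and 14.1% of those with a KEGG hit. The median log2 ratio of these 33 was -0.56, the same as the median of the 3627 isotigs of that depth with a KEGG hit. Their spread was wider, with an SD of the log2 ratios of 0.90 against 0.75. For light vs control the SD was 0.45 for the 33 and 0.43 for the 3627.

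The dark library gave the lowest RPKM of the 3 for 49 of the 68 pathway isotigs (72.1%), the light library for 9 and the control library for 10. Over all isotigs that passed the filter dark was lowest in 54.7%, and over those with a KEGG hit in 67.6%. For 32 of the 68 the order was light highest and dark lowest. That order was not counted over all isotigs, so the 32 are a description only.

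**Figure D3:**
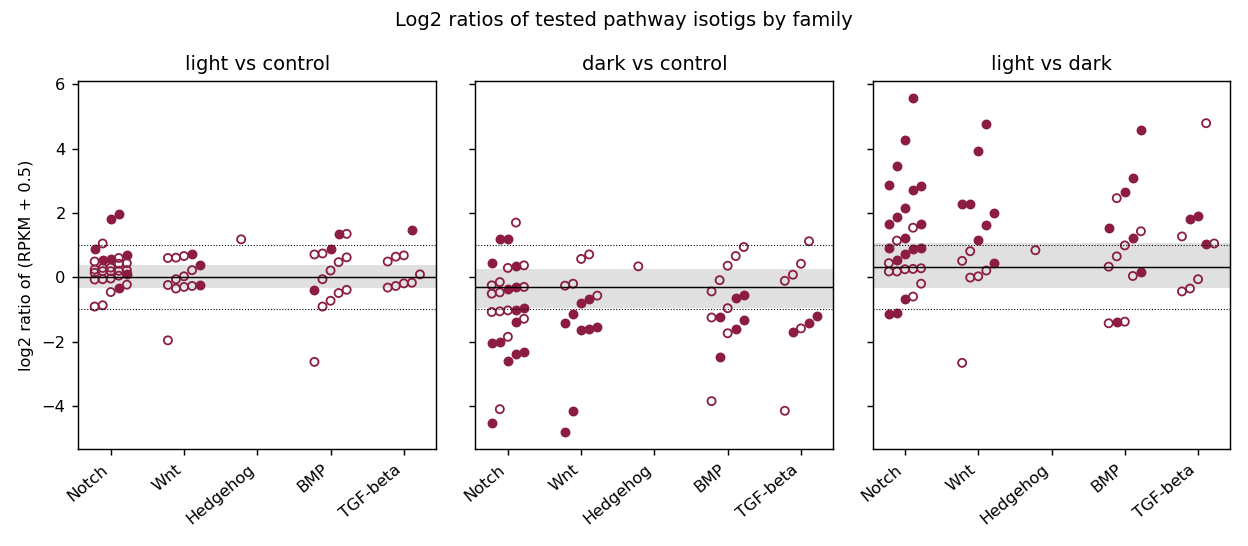
Log2 ratios of (RPKM + 0.5) for the 68 pathway isotigs that passed the level filter, by family, in light vs control, dark vs control and light vs dark; filled points have a 95% counting interval excluding 1, open points do not. The grey band and black line are the middle range between quartiles and the median of all 18225 isotigs (medians 0.00, -0.31 and 0.32), the dotted lines mark 2-fold, and many more points lie past the lower line in dark vs control (33) than in light vs control (2).

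The ligands of the Notch pathway are transmembrane proteins on the signal-sending cell. The 1 jagged isotig, isotig10355, had 173 reads in light, 15 in dark and 89 in control, or 75.8, 6.36 and 40.8 RPKM. Light was the highest and dark by far the lowest. The level in light was 1.86-fold that in control (counting interval 1.43 to 2.42), the level in dark was 6.42-fold lower than in control (3.69 to 11.9), and the level in light was 11.9-fold that in dark (7.02 to 21.7). With size factors the dark vs control log2 ratio was -2.29, against -2.59 on the deposited scale. Its hit was weak, with an E-value of 3e-10, and its second database name was Notch. Counting intervals here and below are exact conditional binomial (Clopper-Pearson) 95% intervals for the ratio of reads per library total.

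The name Notch was given to 33 isotigs, whose best hits were 21 different proteins. Nothing in the files tells how many genes these are, since several isotigs can be fragments or variants of 1 transcript. The best-read was isotig05245, at rank 113 of all 21290 isotigs by mean RPKM, with 3712 reads in light, 8201 in dark and 3291 in control. Its neighbour isotig05247 had 395 reads in light, 905 in dark and 364 in control. Both were high in dark and close to each other in light and control. Each was 2.30-fold higher in dark than in control (2.21 to 2.40 for isotig05245, 2.03 to 2.60 for isotig05247). In light, isotig05245 was 1.08-fold higher than in control (1.03 to 1.13) and isotig05247 was 1.04-fold higher (0.896 to 1.20). The third, isotig05246, had 131 reads in light, 156 in dark and 107 in control, and was 1.35-fold higher in dark than in control (1.05 to 1.74). These 3 isotigs share 1 best hit at E-values of 1e-07 to 2e-07.

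Reads fell on only part of each of these 3 isotigs. In isotig05245, of 2508 bases, 1138 bases were covered in light, 1138 in dark and 1137 in control. In isotig05247, of 1990 bases, 323 were covered in light, 328 in dark and 330 in control, and in isotig05246, of 2099 bases, 149, 152 and 150 in light, dark and control. The covered length was thus nearly the same in each library, and what sets it was not tested. RPKM divides by the whole length, so their levels are not comparable with those of fully covered isotigs, while the ratios between libraries do not depend on length. By contrast, isotig14256 was covered over 84.55% to 87.14% of its length.

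Notch isotigs with strong and weak hits are set side by side here, a split made after the values were seen. Of the 25 with an E-value of at most 1e-10, 20 passed the filter, and 13 of these were at least 2-fold lower in dark than in control and 0 higher, with a median log2 ratio of -1.07. Of the 8 with a weaker hit all passed, and 3 were higher and 0 lower, with a median of 0.39. These 3 were isotig05245 and isotig05247, which share a best hit and may not be separate genes, and isotig20257. The last had only 12 reads in dark and 3 in control, and its interval included 1. Among all isotigs with a KEGG hit the share lower in dark was 29.4% at an E-value of at most 1e-10 and 30.8% above it. The shares higher in dark were 3.89% and 6.51%. The weak hits included 6 of the 8 Notch isotigs whose mean reached 100 reads, so hit strength and depth go together here and cannot be told apart.

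**Figure D4:**
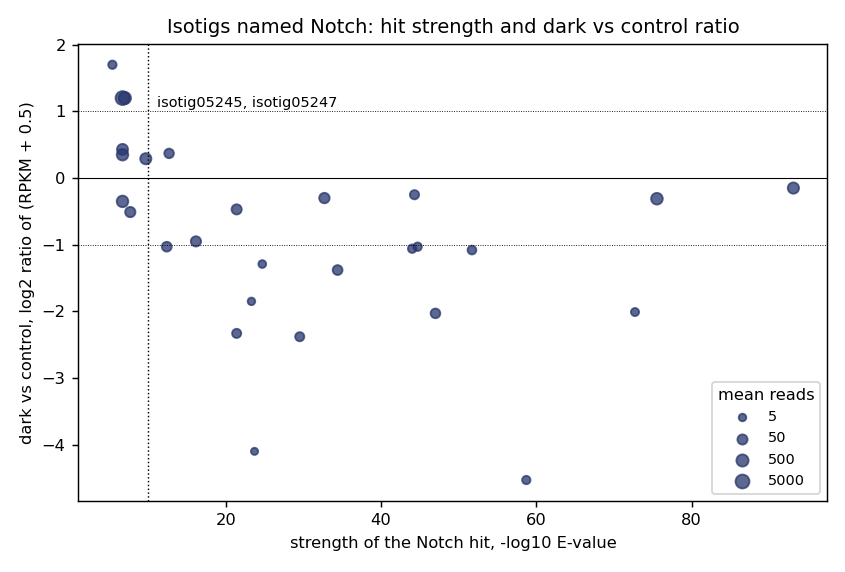
Log2 ratio of (RPKM + 0.5) in dark vs control against the strength of the Notch hit, as the negative log10 of its E-value, for the 28 isotigs named Notch that passed the filter; point size follows the mean reads, the vertical dotted line is at 1e-10 and the horizontal ones at 2-fold. To the right of the line 13 of 20 points lie past 2-fold lower and none past 2-fold higher. To its left 3 of 8 lie past 2-fold higher, including isotig05245 and isotig05247, which share a best hit.

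Only isotig13293 and isotig14256 combined a Notch hit of at most 1e-10 with a mean of 100 reads or more, and both stayed within 2-fold in each comparison. The isotig13293, with the strongest Notch hit (E-value 8e-94), had 190 reads in light, 161 in dark and 165 in control, and the dark interval included 1 (1.11-fold lower, 0.887 to 1.39). The isotig14256, with an E-value of 3e-76, had 379 reads in light, 214 in dark and 245 in control. It was 1.48-fold higher in light than in control (1.25 to 1.74) and 1.24-fold lower in dark (1.03 to 1.49), and its level in light was 1.83-fold that in dark (1.54 to 2.17). With size factors its dark vs control log2 ratio was 0.01.

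Less deeply read Notch isotigs with strong hits made up the lower group in dark. The isotig07872 had 56 reads in light, 8 in dark and 33 in control, and was 4.46-fold lower in dark than in control (2.02 to 11.2). The isotig24802 had 31 in light, 4 in dark and 21 in control, 5.68-fold lower in dark than in control (1.92 to 22.8), and its second name was delta. The isotig28558 had 22 in light, 6 in dark and 29 in control, 5.23-fold lower in dark (2.13 to 15.4). Dark was the lowest of the 3 libraries in each. The isotig25006 had 20 reads in light, 0 in dark and 9 in control. With 3 reads per library as the floor it was at least 3.24-fold lower in dark than in control. The isotig17983 had 54 in light, 17 in dark and 42 in control (2.67-fold lower, 1.49 to 5.01), and isotig08440 had 7, 2 and 14 reads in light, dark and control (7.57-fold lower, 1.74 to 68.6). The isotig25339, with 48 in light, 21 in dark and 40 in control, was 2.06-fold lower in dark (1.19 to 3.68) but under 2-fold with size factors. In light, dark and control, isotig27369 had 16, 5 and 10 reads, isotig15419 had 8, 1 and 6, and isotig27683 had 6, 0 and 5. The second name of isotig15419 was laminin alpha 1/2, with an equal hit score.

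A pair of Notch isotigs stood above control in light. The isotig27124 had 23 reads in light, 3 in dark and 6 in control, and was 3.66-fold higher in light than in control (1.45 to 11.0). The isotig20257, whose second name was delta, had 14 in light, 12 in dark and 3 in control. It was 4.46-fold higher in light than in control (1.24 to 24.2), and 3.70-fold higher in dark with an interval that included 1 (0.998 to 20.4). Its hit was weak, at an E-value of 4e-06. The remaining well-read Notch isotigs stayed within 2-fold. The isotig28682 had 181 reads in light, 301 in dark and 218 in control, and was 1.61-fold lower in light than in dark (1.34 to 1.95). The isotig15838 had 294, 207 and 245 reads and isotig18245 had 185, 161 and 122 reads in light, dark and control.

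Isotigs of proteins that act with Notch are left out by the name rule. Of 21 that passed the filter, 9 (42.9%) were at least 2-fold lower in dark than in control, against 24.0% of all isotigs and 29.6% of those with a KEGG hit. With size factors 8 were lower, against 16.6% of all and 18.8% of those with a KEGG hit. In dark 1 was higher (4.76%, against 7.09% of all isotigs). In light vs control 1 was higher (4.76%, against 7.77% of all) and 0 lower (against 7.22% of all). The ADAM10 protease, which makes the first cut in Notch, had 747 reads in light, 240 in dark and 580 in control on isotig13190, 2.61-fold lower in dark than in control (2.24 to 3.05). Nicastrin, presenilin 1 and presenilin enhancer 2 are subunits of gamma-secretase, and 2 of their 5 isotigs were at least 2-fold lower in dark. Nicastrin isotig17661 had 102 reads in light, 38 in dark and 112 in control (3.19-fold lower in dark, 2.19 to 4.74), and presenilin 1 isotig08573 had 44, 16 and 39 in light, dark and control (2.64-fold lower, 1.44 to 5.05). The other nicastrin, isotig20918, had 92 in light, 42 in dark and 68 in control (1.75-fold lower in dark, 1.17 to 2.64), and the other presenilin 1, isotig08574, had 17, 13 and 24 in light, dark and control, with an interval including 1. Presenilin enhancer 2 isotig17616 had 94 in light, 91 in dark and 91 in control. Of 5 isotigs of the ligand delta 2 were at least 2-fold lower in dark, and of these isotig28141 had 47 in light, 8 in dark and 23 in control, and was 3.11-fold lower in dark (1.34 to 8.04). The 1 isotig at least 2-fold higher in dark was isotig17463, named hairy and enhancer of split 1, a repressor made in response to Notch, with 12 reads in light, 17 in dark and 7 in control. Its interval included 1 (2.25-fold, 0.885 to 6.40).

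Secreted Wnt ligands were barely detected. The 4 isotigs, named Wnt4, Wnt6 and Wnt8, had at most 2 reads in any library, too few for a comparison. The secreted inhibitor sFRP5, which binds Wnt proteins, had 8 reads in light, 7 in dark and 10 in control, and its intervals included 1.

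Frizzled isotigs, the Wnt receptors, differed among themselves. The best-read frizzled 9/10, isotig18974 (E-value 2e-11), had 378 reads in light, 98 in dark and 279 in control. Dark stood well below the others. It was 3.08-fold lower in dark than in control (2.44 to 3.92) and 1.29-fold higher in light than in control (1.11 to 1.52), and its level in light was 3.98-fold that in dark (3.18 to 5.03). The other frizzled 9/10, isotig23139, had 26 reads in light, 27 in dark and 30 in control, with all intervals including 1. Frizzled 1/7 isotig28016 had 395 reads in light, 301 in dark and 449 in control, and was lower than control in both light (1.19-fold, 1.04 to 1.37) and dark (1.61-fold, 1.39 to 1.87). Its hit was weak, at an E-value of 6e-07, while frizzled 1/7 isotig13505, with an E-value of 6e-175, had 60, 43 and 71 reads in light, dark and control (1.79-fold lower in dark, 1.21 to 2.67). Frizzled 5/8 had 3 reads in light, 0 in dark and 4 in control.

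The proteins inside the cell accounted for most of the lower Wnt isotigs. Of 7, 6 were at least 2-fold lower in dark than in control (24.0% of all isotigs, 29.6% of those with a KEGG hit). With size factors it was 5 of 7 (16.6% of all, 18.8% of those with a KEGG hit). All 6 were named APC or DAAM, and isotigs of the same name can be fragments of the same transcript, so they are not separate genes by name. APC is part of the complex that marks beta-catenin for breakdown. Its isotig14180 had 27 reads in light, 8 in dark and 22 in control (2.97-fold lower in dark than in control, 1.28 to 7.73). The isotig23130 had 13 in light, 0 in dark and 13 in control, at least 4.69-fold lower in dark, and isotig23208 had 7, 0 and 8 in light, dark and control, at least 2.88-fold lower in dark. The hit of isotig23130 was weak, with an E-value of 3e-08. Summed over the 3 isotigs, APC had 47 reads in light, 8 in dark and 43 in control. Light and control were close (1.04-fold, 0.675 to 1.62) and dark was 5.81-fold lower than control (2.70 to 14.3).

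DAAM, a formin that binds dishevelled and builds actin filaments, showed the same order in each of its isotigs, with dark lowest. The isotig11995 had 77 reads in light, 16 in dark and 44 in control, isotig19876 had 45 in light, 9 in dark and 27 in control, and isotig12477 had 31 in light, 14 in dark and 29 in control. With size factors the dark vs control log2 ratio of isotig12477 was -0.83, under 2-fold. Their sum was 2.77-fold lower in dark than in control (1.90 to 4.12) and 1.46-fold higher in light than in control (1.13 to 1.90). The isotig11995 had a weak hit, with an E-value of 2e-09 and the related formin diaphanous 2 as its second name. Dishevelled itself, which relays the signal from frizzled, had 26 reads in light, 15 in dark and 16 in control, and its dark interval included 1 (1.15-fold lower, 0.534 to 2.51).

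Of 17 Wnt partner isotigs that passed the filter, 8 were at least 2-fold lower in dark than in control and 0 higher. The shares were 24.0% and 7.09% of all isotigs, and 29.6% and 4.23% of those with a KEGG hit. With size factors 4 were lower and 2 higher, against 16.6% and 11.8% of all, and 18.8% and 7.79% of those with a KEGG hit. All 4 isotigs of the co-receptor LRP5/6 were among the 8, and they can be fragments of the same transcript. The best-read was isotig26912, with 180 reads in light, 73 in dark and 147 in control (2.18-fold lower in dark, 1.63 to 2.92). With size factors isotig26912 and isotig28182 were under 2-fold, at log2 ratios of -0.80 and -0.87. Casein kinase 1 gamma, which phosphorylates LRP6 in vertebrate cells, had 284 reads in light, 96 in dark and 267 in control on isotig10165 (3.01-fold lower in dark, 2.37 to 3.84). Light and control were within counting error of each other (1.02-fold, 0.856 to 1.20). The transcription factor 7-like 2, which binds beta-catenin at target genes, had 33 in light, 16 in dark and 37 in control on isotig14222 (2.50-fold lower in dark, 1.36 to 4.82), and was under 2-fold with size factors (log2 ratio -0.95).

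**Figure D5:**
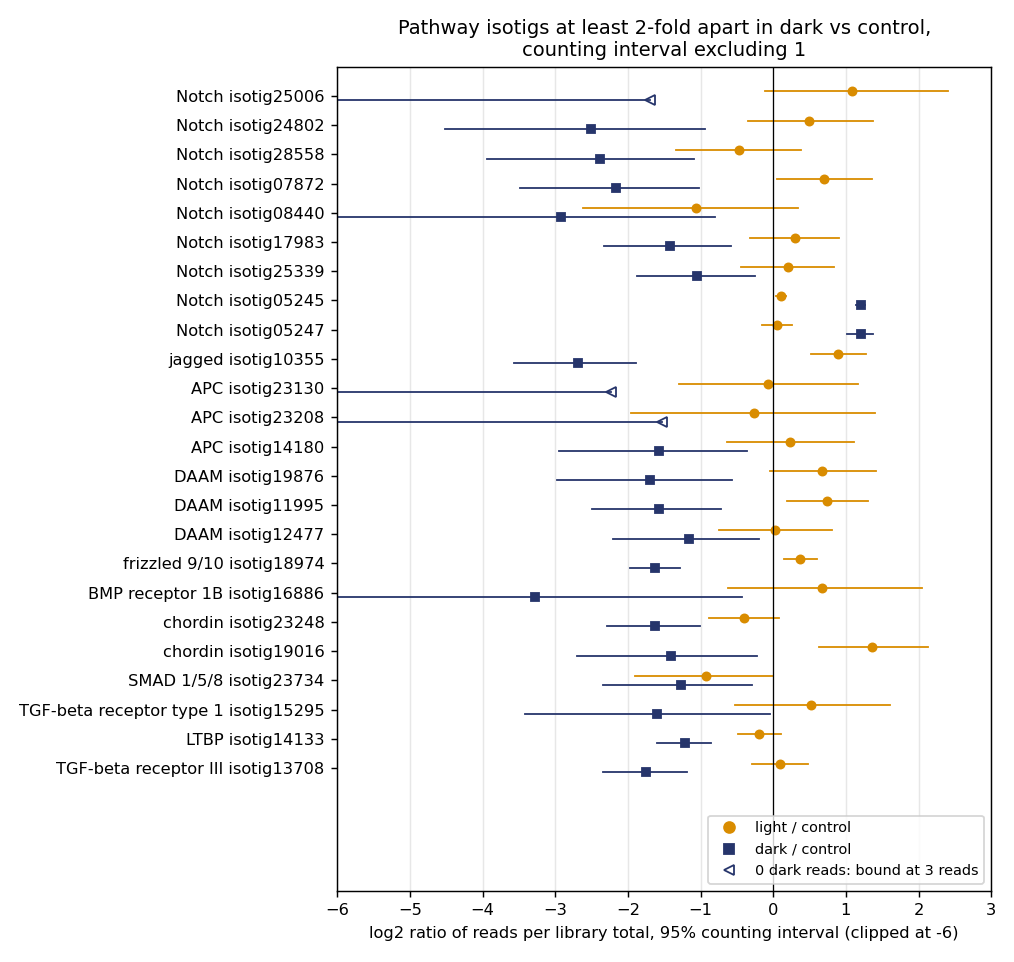
Log2 ratio of reads per library total with 95% counting interval for the 24 pathway isotigs at least 2-fold apart in dark vs control with an interval excluding 1; circles are light / control, squares dark / control, open triangles mark isotigs with 0 dark reads at the bound set by 3 reads, and lines are clipped at -6. The dark points of 22 isotigs lie left of 0 and those of Notch isotig05245 and isotig05247 right of it, while the light points of most of the 24 have intervals that reach 0; DAAM, APC and LTBP are the names explained in the text.

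In dark vs control, 22 of the 68 pathway isotigs were at least 2-fold lower with a counting interval excluding 1. By the same limits 2 of the 68 were higher, out of 4 at least 2-fold higher. For all isotigs that passed the filter such shares were 14.1% lower and 2.57% higher, and for those with a KEGG hit 21.1% and 1.76%. Among isotigs at least 2-fold lower, such an interval was found for 22 of 33 pathway isotigs and for 2572 of all 4380. By family, the isotigs at least 2-fold lower in dark than in control were 14 of 29 for Notch with jagged, 7 of 14 for Wnt, 7 of 15 for BMP and 5 of 9 for TGF-beta, where 24.0% of all isotigs and 29.6% of those with a KEGG hit were lower by that limit alone. With size factors they were 10, 6, 6 and 4 in that order, where 16.6% of all and 18.8% of those with a KEGG hit were lower. The hedgehog isotig, a secreted ligand, had 6 reads in light, 3 in dark and 2 in control. Suppressor of fused, which holds back the Hedgehog transcription factor GLI, had 47 in light, 21 in dark and 60 in control on isotig13642 (3.09-fold lower in dark than in control, 1.85 to 5.35).

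None of the 3 BMP ligand isotigs that passed the filter was at least 2-fold lower in dark than in control. That share was 24.0% of all isotigs and 29.6% of those with a KEGG hit. With size factors 1 was at least 2-fold higher (11.8% of all, 7.79% of those with a KEGG hit). BMP 2/4 isotig16097 had 16 reads in light, 45 in dark and 26 in control, with dark the highest. It was 2.72-fold lower in light than in dark (1.51 to 5.16), and the dark vs control interval included 1 (1.60-fold higher, 0.966 to 2.70). With size factors the dark vs control log2 ratio was 0.97. The second BMP 2/4 isotig had 0 reads in light, 3 in dark and 0 in control. BMP 5/6/7/8 had 2 in light, 7 in dark and 3 in control, which was 2.16-fold higher in dark than in control (0.493 to 12.9), with a log2 ratio of 0.94 on the deposited scale and 1.21 with size factors. BMP 3/3B had 13 in light, 6 in dark and 4 in control, with intervals including 1. The 3 ligand isotigs that passed the filter all had a dark log2 ratio above 0, of 0.36, 0.66 and 0.94. All 3 dark vs control intervals included 1. Above 0 were also 6485 of all 18225 isotigs, and 1609 of the 6484 with a KEGG hit.

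The BMP receptor type 1B, a receptor kinase, was read thinly. Its isotig16886 had 15 reads in light, 1 in dark and 9 in control, 9.73-fold lower in dark than in control with a wide interval (1.35 to 427). The other, isotig16843, had 4 in light, 0 in dark and 2 in control.

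Chordin, which binds BMPs outside the cell, was the name of 6 isotigs. The best-read, isotig20247, had 1224 reads in light, 1122 in dark and 1535 in control, or 960, 852 and 1261 RPKM. It was lower than control in light (1.31-fold, 1.22 to 1.42) and in dark (1.48-fold, 1.37 to 1.60), with a modest hit at an E-value of 2e-11. With size factors its log2 ratios were -0.41 for light vs control, -0.25 for dark vs control and -0.16 for light vs dark. On that scale light, not dark, was the lowest. The isotig19016 had 59 in light, 9 in dark and 22 in control, and thus lay above control in light (2.56-fold, 1.55 to 4.39) and below it in dark (2.64-fold, 1.17 to 6.52). The isotig23248 had 66 in light, 29 in dark and 83 in control, 3.10-fold lower in dark (2.01 to 4.90). These last isotigs had thrombospondin and a fibrillar collagen as second names. The isotig with the strongest chordin hit (E-value 9e-49), isotig20831, had 0 reads in light, 1 in dark and 3 in control.

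SMAD proteins carry the signal from the receptors to the nucleus. SMAD 2/3, which acts for TGF-beta and activin in vertebrates, had 158 reads in light, 56 in dark and 82 in control on isotig13611. Light was the highest, 1.84-fold above control (1.40 to 2.43) and 2.91-fold above dark (2.14 to 4.03), and dark was 1.58-fold lower than control (1.11 to 2.27). With size factors the dark vs control log2 ratio of isotig13611 was -0.34, against -0.65 on the deposited scale. Summed over 3 isotigs, SMAD 2/3 had 176 reads in light, 59 in dark and 93 in control. SMAD 1/5/8, which acts for BMPs, had 16 in light, 13 in dark and 29 in control, and was 2.41-fold lower in dark than in control (1.22 to 5.06). With size factors that log2 ratio was -0.93, under 2-fold.

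Among the TGF-beta receptors, those named III and type 1 were at least 2-fold lower in dark than in control. Receptor III, also called betaglycan, presents the ligand to the other receptors. Its isotig13708 had 122 reads in light, 35 in dark and 109 in control. Light and control were within counting error (1.07-fold, 0.818 to 1.40), and dark was 3.37-fold lower than control (2.28 to 5.08). Receptor type 1, the signalling kinase, had 21 in light, 5 in dark and 14 in control on isotig15295 (3.03-fold lower in dark, 1.03 to 10.7). The isotig16953, named invertebrate TGF-beta receptor, had 19 in light, 9 in dark and 6 in control, 3.02-fold higher in light than in control (1.16 to 9.25). Its second name, TGF-beta receptor type 1, had nearly the same hit score.

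Latent TGF-beta binding protein anchors the inactive ligand in the matrix, and 6 isotigs carried its name. The best-read, isotig14133, had 180 reads in light, 91 in dark and 196 in control, 2.33-fold lower in dark than in control (1.81 to 3.02). With size factors the log2 ratio was -0.89, under 2-fold. The isotig24036 had 10 in light, 4 in dark and 12 in control, with an interval including 1. The isotig09540, with 26, 28 and 28 reads, and isotig26818, with 6, 8 and 7 reads in light, dark and control, were close in all libraries, and both had weak hits. The last 2 isotigs had at most 5 reads in any library.

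Other proteins of these pathways were within 2-fold in dark vs control for all 4 BMP and TGF-beta partner isotigs that passed the filter. They included BAMBI, a receptor-like inhibitor, with 41 reads in light, 34 in dark and 41 in control, and follistatin, which binds activin, with 31 in light, 23 in dark and 21 in control. Over all 44 partner isotigs of the pathways that passed the filter, 19 (43.2%) were at least 2-fold lower in dark than in control and 1 higher, against 24.0% and 7.09% of all isotigs and 29.6% lower among those with a KEGG hit. With size factors 13 were lower and 3 higher, against 16.6% and 11.8% of all isotigs and 18.8% lower among those with a KEGG hit. In light vs control 1 was lower and 1 higher (2.27% each, against 7.22% and 7.77% of all isotigs).

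Between light and control, few pathway isotigs differed by 2-fold, and 4 of the 68 did so with an interval excluding 1, all higher in light. They were Notch isotig27124 and isotig20257, chordin isotig19016 and the receptor isotig16953, with the values given above. For all isotigs that passed the filter that share was 2.25% higher and 1.95% lower, and for those with a KEGG hit 2.42% and 1.54%. The other 3 of the 7 higher isotigs were Notch isotig25006, BMP 3/3B and hedgehog. The 2 lower ones, chordin isotig20831 and Wnt4, had at most 3 reads. Among those under 2-fold but with intervals excluding 1, jagged, SMAD 2/3 isotig13611, DAAM isotig11995, frizzled 9/10 isotig18974 and Notch isotig07872, isotig14256, isotig18245 (1.45-fold, 1.15 to 1.83) and isotig05245 were higher in light than in control. Chordin isotig20247, Notch isotig28682 (1.26-fold, 1.03 to 1.55) and frizzled 1/7 isotig28016 were lower.

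Between light and dark, 26 of the 68 pathway isotigs were at least 2-fold higher in light with an interval excluding 1, out of 33 higher ones. By the same limits 3 of the 68 were lower, out of 6 lower ones. Over all isotigs that passed the filter such shares were 16.5% higher and 3.59% lower. For those with a KEGG hit they were 24.7% and 2.27%. The 3 lower pathway isotigs with such an interval were Notch isotig05245 (2.14-fold lower in light than in dark, 2.06 to 2.22), Notch isotig05247 (2.22-fold lower, 1.97 to 2.50) and BMP 2/4 isotig16097. The largest ratio with reads in both libraries and more than 1 read in each was that of jagged. Notch isotig24802 (interval 2.83 to 31.2), Notch isotig27124 (7.92-fold, 2.39 to 41.2) and Notch isotig07872 (7.23-fold, 3.43 to 17.6) came next. SMAD 2/3 isotig26037 had 9 reads in light, 0 in dark and 5 in control, and was at least 3.10-fold higher in light than in dark.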

How the data were processed

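Per the file headers, the authors deposited for each isotig and library its length, a count of reads placed only there, the percent of bases covered, and RPKM. Summed counts equalled the header totals, and deposited RPKM was the count over length and total. CASAVA 1.5 is named in the submitters' processing notes; assembler and aligner were not given in the sources used here. Per the labels' protocols, RNA came from the body wall and was read as randomly primed cDNA, with no strand marking recorded. Isotigs missing from a table were taken as 0.

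Log2 ratios used RPKM plus 0.5, which understates the ratios of low isotigs, for isotigs whose mean over the 3 libraries reached 1 RPKM, and 2-fold or more was counted. The ratio of reads per library total has an exact binomial 95% interval for counting error only. No test between conditions was possible. Where a library had 0 reads, a bound was taken from 3 reads in it. Size factors were medians of ratios, and edgeR 4.0.16 in R 4.3.3 was used only for TMM factors; other steps ran in Python 3.11.15 with scipy 1.17.1. The counting step was checked on simulated data.

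Members with a mean of at least 100 reads, at least 2-fold apart with an interval excluding 1, or most abundant in their family were named. The isotigs matched only by letters were given as a group instead. Other members, and the partners named, were chosen after their values were seen. The members, the partner list and the other lists were chosen with earlier results of these data known. Tissue lists were the digestive, muscle, fibrillar collagen, ribosomal protein and mitochondrial isotigs. Other pseudocounts, filters, scalings, fold limits and sums per orthology were tried as alternatives.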

Additional observations from a re-analysis of the deposited data

How the results depend on the processing

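No library was left out, since each group has 1. No paired analysis was possible because each group has a single library. Of 135 alternative values for the 90 members, 100 stayed within 1.5 times the count or within the range of the median. No median changed sign. The counts cannot change sign, so this says nothing about them.

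The 8 members at least 2-fold higher in light than in control became 5 with a mean of at least 5 RPKM, 1 with at least 20 reads, 3 when RPKM was summed per orthology, 21 at a 1.5-fold limit, 1 at 4-fold and 5 when the counting interval also had to exclude 1; the 3 lower ones became 1, 0, 1, 7, 1 and 0 in that order. The 5 members higher in dark than in control became 3 with a pseudocount of 1, 3 with at least 5 RPKM, 2 with at least 20 reads, 2 with E-values of at most 1e-10, 0 as orthology sums, 8 at 1.5-fold, 0 at 4-fold, 2 with the interval, and 3 without isotig05245, isotig05246 and isotig05247. Leaving out these isotigs, or those matched only by letters, was chosen after seeing the data. Among all isotigs that passed the filter, 7.77% were higher in light than in control. It was 1.54% of those with at least 20 reads, and 2.25% with the interval. The shares lower in light were 7.22%, 1.79% and 1.95% in that order. The shares higher in dark than in control were 7.09%, 2.82% and 2.57%. The 38 members lower in dark than in control became 15 with at least 20 reads, 13 as orthology sums, 14 at 4-fold and 25 with the interval. The 39 higher in light than in dark became 16 with at least 20 reads, 13 as orthology sums and 18 at 4-fold, and the 6 lower ones became 3 with at least 5 RPKM, 3 with at least 20 reads, 3 as orthology sums, 1 at 4-fold and 3 with the interval. The shares of all isotigs lower in dark than in control were 24.0%, 19.1% and 14.1% in the same order. Those higher in light than in dark were 26.2%, 22.0% and 16.5%, and those lower 8.09%, 4.10% and 3.59%. Each of these filters, sums and limits changes how many isotigs can be counted. The starting counts are out of 81 members, with the 13 matched only by letters. Sums leave fewer units, since the 77 pathway isotigs hold 24 orthologies. The median log2 ratio of light vs dark was 0.91, against 0.58 with size factors and 0.59 with TMM. Depth limits the thinly read members: 44 of 77 pathway isotigs had a mean under 20 reads.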
